A study of Mus musculus with 18 samples.

Results

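A set of 10 genes that mark the stem and progenitor cells at the base of the colon crypt were followed through all 18 libraries of the series. The set holds Lgr5, Ascl2, Axin2, Smoc2, Rnf43, Znrf3, Cd44, Sox9, Lrig1 and Sox4, and each of the 10 names matched 1 of the 52636 gene rows in both deposited tables. The genes were taken by name, with no threshold on their values. RNA was measured by RNA-seq in sorted colon epithelial cells and in whole colon crypts of mice that carry or lack Olfr78, an olfactory receptor found in enteroendocrine cells, the hormone-secreting cells of the gut lining.

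The sorted libraries were 2 Epcam+ve/GFP-ve samples from the colon of 1 WT mouse, 2 Epcam+ve/GFP+ve pools from heterozygous (HE) mice and 2 Epcam+ve/GFP+ve pools from homozygous (KO) mice of the Olfr78-GFP line, with each pool made of cells from 2 mice aged between 4 and 7 months. In the Olfr78-GFP line a GFP cassette replaces the Olfr78 coding exon, so HE cells keep 1 working copy, KO cells have none in any tissue, and GFP marks the cells that use the Olfr78 promoter. The crypt libraries came from 1 mouse each, of an age not given in the sources used here. The Olfr78-GFP line gave 2 WT and 5 KO libraries, and 3 eControl and 2 eKnockout (eKO) libraries came from a second line, where Cre under the Vil1 promoter removes a floxed Olfr78 in gut epithelium only. The genotype labels of that second line read HE/WT, WT/HO and HE/WT for the eControl mice and HE/HO and WT/HO for the eKO mice. Cells and crypts were prepared with different RNA kits, and sorted cells were in addition dissociated with an enzyme, so a sorted library and a crypt library differ in preparation as well as in cells. Both Epcam+ve samples came from the same animal, so their spread is that of sampling and handling, and p-values against them do not cover differences between WT mice.

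Values are given as CP20M, a gene's reads scaled to 20000000 per library. Reads on genes numbered 532704 to 2237486 in the sorted libraries and 6175306 to 10995308 in the crypts, so 1 read was worth 37.5 CP20M in KO pool 1, the shallowest library, and at most 13.3 in the other sorted libraries and 3.24 in the crypts. Enteroendocrine markers summed to 850039 and 1101483 CP20M in HE cells and 355397 to 596957 in KO cells, against 12638 to 12944 in Epcam+ve cells. The label of the archive that calls Epcam+ve cells enteroendocrine was therefore not followed. Olfr78 itself stood at 135 and 21 CP20M in Epcam+ve cells, 4822 and 4401 in HE cells, 977 and 837 in KO cells, 88 and 111 in WT crypts and 7 to 42 in KO crypts. Reads were counted over the whole gene, of which the cassette replaces the coding exon. In the Vil1-Cre line Olfr78 was 61 to 124 CP20M in eControl crypts and 21 in eKO mouse 1. The library labelled eKO mouse 2 had 73 CP20M, inside the control range, so its Olfr78 level goes against its title. It shares its genotype label, WT/HO, with eControl mouse 2. The paper's controls of this line included floxed mice without Cre, which WT/HO describes if the Vil1 allele is named first. The results that rest on this library are given with and without it.

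At the crypt base Wnt proteins bind Frizzled receptors and their LRP partners and keep beta-catenin from being broken down, so that it can switch on genes together with TCF and LEF factors. R-spondins raise this signal by binding LGR receptors and drawing away RNF43 and ZNRF3, the ubiquitin ligases that remove Frizzled receptors from the cell surface. Many crypt base genes are targets of the pathway and several feed back on it. As cells leave the base and take up an absorptive or secretory fate, most of these genes are switched off.

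In crypts the 10 genes spanned a wide range of levels. Per kilobase of exon sequence, which allows levels of different genes to be compared, WT crypts had 709 ± 30.8 CP20M per kb of Sox9 and 656 ± 54.4 of Cd44 (SD, n = 2), which did not differ beyond their spread. Lrig1 followed with 423 ± 6.6 and Sox4 with 239 ± 14.3. Rnf43 (136 ± 26.8) and Axin2 (131 ± 8.5) were alike within their spread, as were Smoc2 (86.5 ± 14.4) and Ascl2 (84.0 ± 4.4). Znrf3 (68.4 ± 3.1) and Lgr5 (57.6 ± 3.2 CP20M per kb) were lowest. The Epcam+ve sorted samples had nearly the same order, with Cd44 first at 831 ± 132 and Sox9 second at 649 ± 31.2. In HE cells the order changed at its top, where Sox4 stood at 1153 ± 105 CP20M per kb, above Lrig1 (362 ± 160), Cd44 (359 ± 222) and Sox9 (343 ± 142), which could not be ordered among themselves. Lgr5 (26.7 ± 21.0) and Smoc2 (18.0 ± 14.4) were at its foot.

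**Figure D1:**
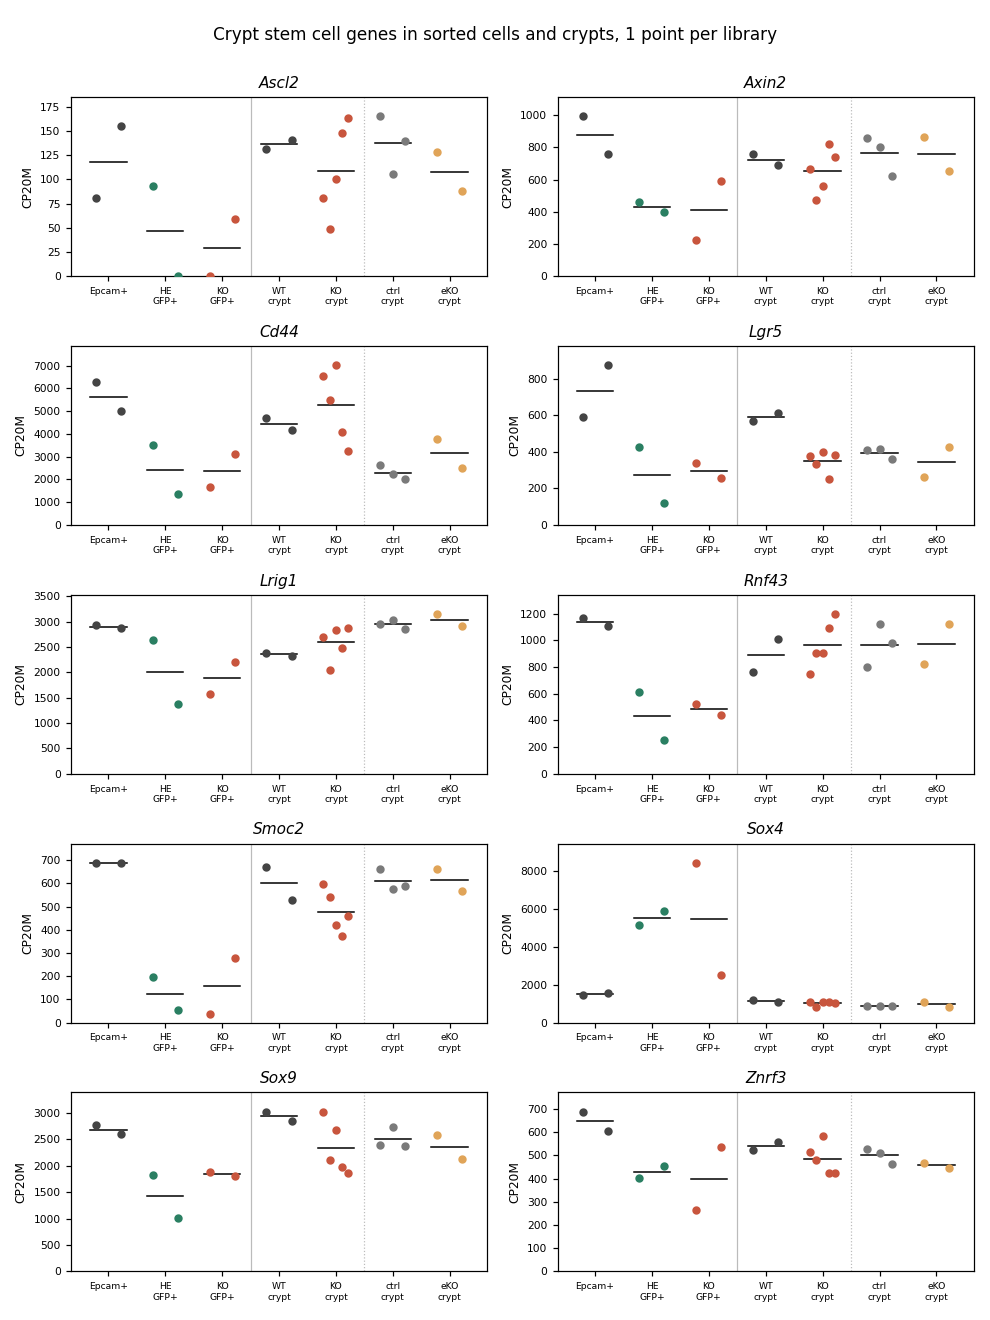
CP20M of each of the 10 crypt stem cell genes (y axis, linear, from 0) in the 18 libraries by group (x axis); points are libraries, black bars group means, the solid line divides sorted cells from crypts and the dotted line the mouse lines. In the HE and KO pools Sox4 lies above both Epcam+ve samples and most other genes below them, and Lgr5 in both WT crypts (568 and 614) is above every other crypt library.

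Promoter sequences were at hand for 6 of the 10 genes, as windows from 250 bases before to 50 bases after the start of transcription on GRCm38 (RefSeq). Those of Axin2 and Sox4 are shown because the genes moved in opposite directions in GFP+ve cells, and that of Ascl2 because it encodes a factor of the basic helix-loop-helix family, which binds E-boxes. Capitals mark E-boxes, searched as CANNTG, which reads the same on both strands. No window was held for Lgr5, Smoc2, Znrf3 and Sox9.
Axin2, chr11:108920099-108920398, plus strand: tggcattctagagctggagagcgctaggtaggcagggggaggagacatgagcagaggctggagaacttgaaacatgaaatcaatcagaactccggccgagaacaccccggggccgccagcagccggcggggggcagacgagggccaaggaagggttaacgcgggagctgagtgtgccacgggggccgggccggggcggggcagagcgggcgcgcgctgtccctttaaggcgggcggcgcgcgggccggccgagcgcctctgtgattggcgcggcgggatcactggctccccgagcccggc
Sox4, chr13:28953650-28953949, minus strand: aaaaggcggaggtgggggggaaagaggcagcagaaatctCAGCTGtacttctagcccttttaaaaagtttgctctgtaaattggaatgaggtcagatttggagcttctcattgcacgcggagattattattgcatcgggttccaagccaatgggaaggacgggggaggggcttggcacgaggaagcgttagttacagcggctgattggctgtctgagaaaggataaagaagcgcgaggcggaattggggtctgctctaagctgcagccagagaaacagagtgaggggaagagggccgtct
Ascl2, chr7:142969215-142969514, minus strand: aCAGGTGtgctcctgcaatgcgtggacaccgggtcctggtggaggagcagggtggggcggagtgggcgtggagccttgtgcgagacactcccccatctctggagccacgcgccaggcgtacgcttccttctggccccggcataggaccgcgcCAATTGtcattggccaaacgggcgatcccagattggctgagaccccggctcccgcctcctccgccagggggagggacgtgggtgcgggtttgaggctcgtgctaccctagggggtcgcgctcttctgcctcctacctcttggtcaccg

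The Sox4 window holds 1 E-box, CAGCTG, which 16.3% of all 32851 promoter windows hold. The Ascl2 window holds 2, and the Axin2 window none, while 72.3% of all windows hold at least 1 CANNTG. The words CTTTGA and CTTTGT, the core that TCF and LEF factors bind, were searched on both strands and found in 16% and 18.7% of all windows, but in none of the 7 windows of the 6 genes, Rnf43 having 2. The Axin2 window was 70% G or C and that of Sox4 52%, against a median of 52.7% over all windows.

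The first comparison asks how the stem cell genes stand in Olfr78-expressing cells, in HE pools against Epcam+ve samples. A total of 9 of the 10 genes had a lower mean on the log2 scale in HE cells, and Sox4 a higher one. At an adjusted p-value under 0.05 (limma on log2(CP20M + 10), Benjamini-Hochberg over 16355 genes), 5 fell, Smoc2, Rnf43, Cd44, Axin2 and Sox9, where 11.3% of all genes tested were called lower, and Sox4 rose, where 12.5% were called higher. None passed the stricter rule of the study's methods, an adjusted p-value under 0.001 with a log2 fold change beyond 2, which 1.75% of all genes passed. The median log2 fold change was -1.17 over the 10 genes and -0.05 over all genes. In bulk libraries like these, fewer cells that use a gene and less RNA per cell cannot be told apart. Cell type, genotype and animal also differ together between HE pools and Epcam+ve samples and cannot be told apart.

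Among the receptors and surface proteins, Lgr5, an R-spondin receptor and a marker of cycling crypt base stem cells (chr10:115450311-115587780, minus strand, GRCm38), was 590 and 874 CP20M in Epcam+ve cells and 426 and 121 in HE cells. The groups did not overlap, but the pools lay far apart, and the log2 fold change of -1.61 (SE 0.54) missed the threshold with an adjusted p-value of 0.0629 in limma. Without HE pool 1 the log2 fold change was -2.48, with the pool left assumed to vary like the Epcam+ve samples. Over the 13 alternatives it ran from -2.48 to -0.74, and edgeR's quasi-likelihood test gave an adjusted p-value of 0.0326. Cd44, a hyaluronan receptor and Wnt target, fell from 6266 and 5003 to 3498 and 1374 CP20M (log2 fold change -1.35, SE 0.38). Lrig1, a membrane protein that restrains ErbB receptors, was 2932 and 2877 in Epcam+ve cells and 2647 and 1387 in HE cells (log2 fold change -0.60, SE 0.29, adjusted p = 0.17 in limma). HE pool 1 was thus close to the Epcam+ve level of Lrig1 and HE pool 2 well below it.

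Of the secreted and feedback proteins, Smoc2, an extracellular matrix protein of the crypt base (chr17:14279506-14404790, plus strand), showed the largest decrease of the 10 genes in this comparison. It was 689 CP20M in both Epcam+ve samples and 196 and 54 in HE cells, a log2 fold change of -2.61 (SE 0.55, adjusted p = 0.0117 in limma). The HE values of Smoc2 are only 17 and 4 reads. Axin2, a scaffold of the complex that breaks down beta-catenin and a direct Wnt target, fell from 993 and 761 to 461 and 401 CP20M (log2 fold change -0.999, SE 0.28). Here both pools were well matched. Rnf43, a ubiquitin ligase that removes Frizzled receptors, fell from 1171 and 1110 to 610 and 254 CP20M (log2 fold change -1.51, SE 0.39). Znrf3, its close relative with the same role, was 689 and 607 in Epcam+ve cells and 403 and 454 in HE cells (log2 fold change -0.59, SE 0.28, adjusted p = 0.165 in limma). Axin2 shares 209 of its 5506 exon bases with an antisense gene, and whether the counting used strand is not given in the sources used here.

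The transcription factors of the set moved in different directions. Sox9, a factor of crypt base, progenitor and some secretory cells, fell from 2771 and 2589 CP20M to 1830 and 1001 (log2 fold change -0.98, SE 0.28, adjusted p = 0.0372 in limma). Sox4, a factor of progenitors and of the secretory and endocrine lineages (1 exon, chr13:28948919-28953713, minus strand), rose from 1449 and 1593 CP20M to 5167 and 5881, a log2 fold change of 1.85 (SE 0.18, adjusted p = 0.000428). Its increase passed in all 13 alternatives, with log2 fold changes of 1.76 to 1.95 and adjusted p-values of 6.5e-11 to 0.0473. Of the 4795 exon bases of Sox4, 2616 are shared with Gm26735, a long noncoding RNA on the other strand. That row held 1109 and 1336 CP20M in Epcam+ve cells and 3844 and 4641 in HE cells, and without known strand the reads of both genes cannot be told apart. Ascl2, the factor that drives the stem cell programme, was 81 and 155 CP20M in Epcam+ve cells, 93 in HE pool 1 and at 0 in HE pool 2, where 3 reads, the limit that a count of 0 allows, are worth 40 CP20M. These are few reads, and no difference of Ascl2 was detectable at this depth with both pools.

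The number of genes called rested on single libraries and on the fit. With 1 library left in a group, that library is assumed to vary like those of the other group. At the adjusted p-value under 0.05, 2 of the 10 genes were called without Epcam+ve sample 1, beside 13.7% of all genes, and 3 without Epcam+ve sample 2, beside 11.8%. When all 6 sorted libraries were fitted together 1 was called, Sox4, beside 8.96% of all genes. Without HE pool 1, 9 were called, beside 32.8% of all genes, and 4 passed the stricter rule, beside 7.91%.

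The HE pools themselves differed. Relative to the Epcam+ve mean, HE pool 1 kept 58.2% of Lgr5, 62.1% of Cd44, 53.5% of Rnf43 and 91.1% of Lrig1, and HE pool 2 kept 16.5%, 24.4%, 22.3% and 47.8%. Axin2 (52.6% and 45.7%) and Znrf3 (62.2% and 70.1%) were alike in both. Some markers of other epithelial cells differed between the pools in the same direction. The 6 dividing-cell markers summed to 29.2% of the Epcam+ve mean in HE pool 1 and 12% in HE pool 2, and the 6 goblet markers to 46.0% and 19.9%. Deep crypt secretory markers (60.6% and 61.2%) and tuft markers (19.4% and 18.8%) were at like levels in both pools. The 3 deep crypt secretory genes differed among themselves, with log2 fold changes from -1.72 to 0.27 in HE pools against Epcam+ve samples. The part of these other epithelial cells in the level of the stem cell genes was not tested. The 6 dissociation stress genes summed to 90439 and 94335 CP20M in HE cells and 30503 and 33944 in Epcam+ve cells, and their part was not tested either. Leukocyte markers were near 0 in sorted cells, with 0 to 106 CP20M summed over 6 genes. Stromal and vessel markers, also 6 genes, summed to 1879 and 1734 CP20M in HE cells and 1803 and 1014 in KO cells. In Epcam+ve cells they summed to 476 and 558. Single genes of this list did not all follow the sum. Of the 3 tested in HE pools against Epcam+ve samples, 1 was higher and 2 were lower, with log2 fold changes from -3.607 to 2.893. In KO pools against Epcam+ve samples 1 was also higher and 2 were lower. The part of these markers in the level of the stem cell genes was not tested.

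**Figure D2:**
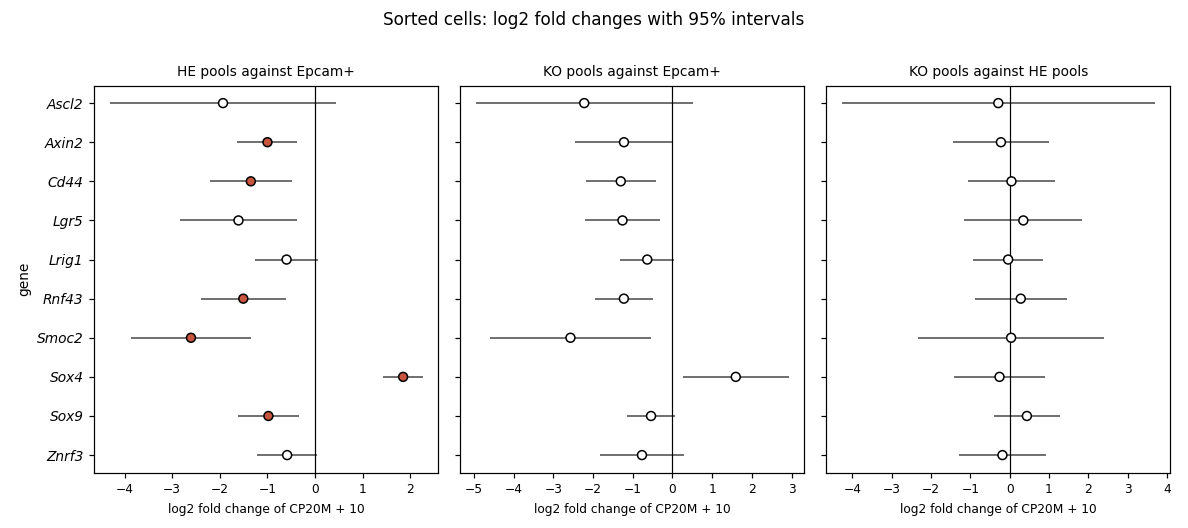
Log2 fold change of CP20M + 10 (x axis) for each of the 10 genes (y axis) in the 3 comparisons of sorted cells; circles are limma estimates, lines 95% intervals, and filled circles are genes called at an adjusted p-value under 0.05. In HE pools against Epcam+ve samples 6 circles are filled, with Sox4 (1.85) to the right of 0 and the other 5 to the left, and none is filled in the other panels.

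KO pools against Epcam+ve samples gave the same arrangement of values, with 9 of the 10 genes lower and Sox4 higher, but none was called at an adjusted p-value under 0.05, where 0.735% of the 15779 genes were. These values share Epcam+ve cells with the comparison above and are not independent of it. Both KO pools lay below both Epcam+ve samples for 9 of the 10 genes, an arrangement that 35.5% of all genes had, and both HE pools for 8 of the 10, where 33.1% of all genes had it. Rnf43, with the smallest p-value of the set, was 526 and 442 CP20M (log2 fold change -1.22, SE 0.30, adjusted p = 0.159 in limma). Lgr5 was 338 and 256 (-1.26, SE 0.39, adjusted p = 0.208) and Cd44 1652 and 3103 (-1.30, SE 0.36, adjusted p = 0.189). Smoc2 was 38 and 279 (-2.57, SE 0.84, adjusted p = 0.221), where 38 CP20M in KO pool 1 are 1 read. Log2 fold changes were -2.22 for Ascl2, -1.22 for Axin2, -0.77 for Znrf3, -0.635 for Lrig1 and -0.54 for Sox9. In limma 5 of the 10 genes had an unadjusted p-value under 0.05, as had 2925 of all genes. Sox4 stood at 8448 and 2510 CP20M in KO pools 1 and 2, both above Epcam+ve cells but far from each other (log2 fold change 1.59, SE 0.55, adjusted p = 0.233).

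KO pool 1 was shallow and KO pool 2 was rich in goblet RNA, with goblet markers at 19.1% and 104% of the Epcam+ve mean and dividing-cell markers at 22.5% and 32.5%. Their part in the values of the stem cell genes was not tested. With KO pool 2 left out, 9 of the 10 genes passed an adjusted p-value under 0.05, as did 45.3% of all genes. With KO pool 1 left out 5 did, beside 9.96% of all genes, and with the library number as a block 3 did, beside 6.34%. With 1 pool left in a group, that pool is assumed to vary like Epcam+ve cells. Ascl2 was at 0 in KO pool 1, where 3 reads are worth 113 CP20M, about the Epcam+ve level, and 59 in KO pool 2.

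Set directly against each other, KO and HE pools asked whether loss of Olfr78 changes the stem cell genes in the cells that would express it. None of the 10 genes was called at an adjusted p-value under 0.05 in limma, where 0% of the 15961 genes were, and none had an unadjusted p-value under 0.05, as 591 of all genes had. DESeq2 on recovered reads called 7 genes and edgeR's quasi-likelihood test 0, and neither called a member of the set. The criterion of the study's methods, a difference of means beyond 2 times the mean SD with a change beyond 1.5-fold among genes above 2 CPM in all 4 pools, was passed by 13.2% of genes, 1187 lower and 384 higher in KO (633 and 655 after median-of-ratios rescaling), and by none of the 8 genes of the set that could be tested. Lgr5 averaged 297 CP20M in KO pools and 274 in HE pools, a log2 fold change of 0.35 with a 95% interval from -1.15 to 1.85. Sox4 averaged 5479 and 5524 (log2 fold change -0.26, interval -1.41 to 0.90), and Axin2 410 and 431 (-0.22, interval -1.45 to 1.01), and for both genes edgeR and DESeq2 gave values above 0. The narrowest interval was that of Sox9, from -0.40 to 1.28 around 0.44. Except for Lrig1, the intervals leave room for changes of more than 2-fold, and the values do not show that HE and KO pools are alike.

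The comparison of WT crypts with Epcam+ve samples asks how far sorted epithelium resembles the tissue it came from. None of the 10 genes was called at an adjusted p-value under 0.05, where 24.6% of 15434 genes were, and log2 fold changes ran from -0.41 for Sox4 to 0.25 for Ascl2, which was below 0 in edgeR and DESeq2. Lgr5 was 568 and 614 CP20M in WT crypts and 590 and 874 in the sorted samples (log2 fold change -0.28, SE 0.21). Smoc2 was 672 and 530 against 689 in both sorted samples. The 2 kinds of library also differ in composition, and rescaling by the median of ratios moved the median gene by -0.19 on the log2 scale, from 0.26 to 0.07, and the share of calls that were higher in crypts from 75.3% to 53.6%. On that scale 4 of the 10 genes, Rnf43, Cd44, Lrig1 and Sox4, were called lower in crypts, with log2 fold changes of -0.50 to -0.61, where 8.13% of all genes were. Without Epcam+ve sample 1, 3 of the 10 genes were called beside 44.7% of all genes, and without Epcam+ve sample 2 also 3, beside 32.9%.

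In whole crypts, the question was whether loss of Olfr78 alters the stem cell compartment. In the Olfr78-GFP line, 1 of the 10 genes was called in KO against WT crypts, Lgr5, which fell (limma over 15975 genes, by the study's rule of a change beyond 1.5-fold with an adjusted p-value not above 0.2). By that rule 1.53% of all genes were called lower and 9.48% in either direction. Lgr5 was 568 and 614 CP20M in WT crypts and 376, 334, 401, 254 and 383 in KO crypts. Its mean fell from 591 to 350 CP20M, a log2 fold change of -0.76 (SE 0.17, adjusted p = 0.0195 in limma). Over the 15 alternatives the log2 fold change stayed between -0.82 and -0.65 and the adjusted p-value between 0.00169 and 0.212. The call ended without WT mouse 2 (log2 fold change -0.70, adjusted p = 0.212), and without WT mouse 1 the adjusted p-value was 0.116 with a log2 fold change of -0.81.

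No other gene of the set was called. Sox9 was 3018 and 2838 CP20M in WT crypts and 3010, 2099, 2674, 1980 and 1868 in KO crypts (log2 fold change -0.36, SE 0.16, adjusted p = 0.189), short of the fold required. Smoc2 was 672 and 530 in WT crypts and 373 to 597 in KO crypts (log2 fold change -0.33, SE 0.17, adjusted p = 0.245). Both groups overlapped for these genes. Ascl2 was 131 and 141 in WT crypts and ranged from 49 to 163 in KO crypts (log2 fold change -0.41, SE 0.34). With the library number as a block it was called, at -0.99 with an adjusted p-value of 0.0149 in limma, beside 9.73% of all genes. Over the 15 alternatives its adjusted p-value ran from 0.0149 to 0.779. In the block fit the KO mice 3 to 5 have no WT partner. Axin2 (-0.17), Znrf3 (-0.16) and Sox4 (-0.15) had log2 fold changes below 0 and Cd44 (0.19), Lrig1 (0.12) and Rnf43 (0.12) above it, all with 95% intervals that span 0. With the block Cd44 was 0.43, with an adjusted p-value of 0.00364 in limma (0.00364 to 0.914 over the 15 alternatives). It passed an adjusted p-value under 0.05, as 12.5% of all genes did with the block, but not the fold limit. Cd44 varied most among the KO mice after Ascl2, from 3248 to 7021 CP20M, while its WT values were 4711 and 4189. Across the 10 genes the median log2 fold change was -0.17, and across all genes 0.03.

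Other measures moved with the Lgr5 result in crypts. Both WT libraries lay above all 10 other crypt libraries, those of the second line included, for Lgr5 and for 2.12% of 16447 genes, and for no other gene of the set. Levels across the lines are set side by side from tables that were deposited separately. According to the paper the lines also differ in genetic background, which cannot be told apart from the line here. The 6 dissociation stress genes summed to 19375 and 13941 CP20M in WT crypts, 5914 to 8524 in KO crypts, 5246 to 7087 in eControl crypts and 5651 and 6622 in eKO crypts. Colonocyte markers summed to 143328 and 150440 CP20M in WT crypts and 103905 to 128876 in KO crypts. The single genes did not all follow this sum, as 4 of the 6 colonocyte genes had a log2 fold change above 0 and 2 below it. Markers of enteric glia and smooth muscle summed to 95 and 66 in WT crypts against 149 to 320 in KO crypts. Only 1 of the 5 genes of this list passed the filter, with a log2 fold change of 1.97. Leukocyte markers were 601 and 480 in WT and 193 to 426 in KO crypts. Of these 6 genes 3 passed the filter, all with log2 fold changes below 0. In the second line these 3 lists had values both below and above the WT values, with 118832 to 165101 for colonocytes, 51 to 574 for glia and smooth muscle and 281 to 623 for leukocytes. Stromal and vessel markers overlapped, with 2637 and 1063 in WT crypts, 625 to 1621 in KO crypts and 531 to 2043 in the second line. Dividing-cell markers were 15147 and 15234 in WT and 15891 to 17612 in KO crypts. Against this sum, 4 of the 6 dividing-cell genes had a log2 fold change below 0 and 2 above it, with a median of -0.10. The part of these differences in the Lgr5 result was not tested.

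**Figure D3:**
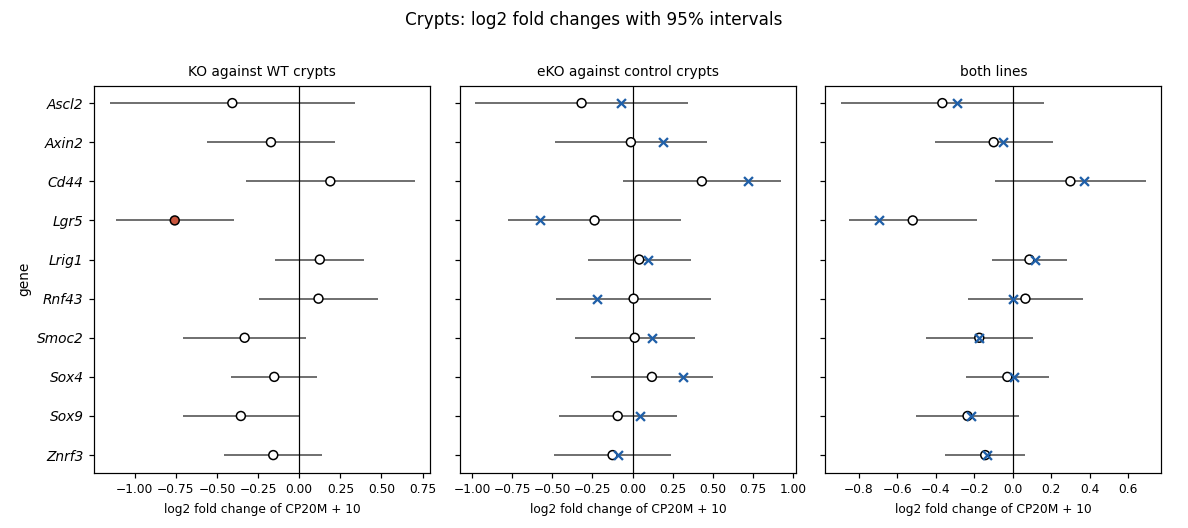
Log2 fold change of CP20M + 10 (x axis) for the 10 genes (y axis) in crypts of the Olfr78-GFP line, of the Vil1-Cre line and of both lines with the line as covariate; circles are limma estimates, lines 95% intervals, a filled circle a called gene and blue crosses the estimates without the library labelled eKO mouse 2. Only Lgr5 in the first panel is filled, at -0.76, and without that library its cross lies at -0.58 in the Vil1-Cre line and -0.70 in both lines.

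In the Vil1-Cre line none of the 10 genes was called in eKO against eControl crypts, where 0% of 15401 genes were in limma, 127 of which had an unadjusted p-value under 0.05. With the same rule edgeR's quasi-likelihood test called 0 genes and DESeq2 6. Lgr5 was 410, 415 and 360 CP20M in the controls, 261 in eKO mouse 1 and 424 in the library labelled eKO mouse 2. The first eKO value was thus below all controls and the second above them (log2 fold change -0.24, interval -0.77 to 0.30). Without the second library the log2 fold change was -0.58 (SE 0.21, adjusted p = 0.678), with a single eKO mouse assumed to vary like the controls. Cd44 was 2629, 2234 and 2028 CP20M in the controls and 3769 and 2520 in the eKO crypts (log2 fold change 0.43, SE 0.21, adjusted p = 1), and 0.72 without the second library. The other 8 genes had log2 fold changes of -0.32 to 0.12, and of -0.22 to 0.31 without the second library.

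With both lines in 1 fit and the line as covariate, none of the 10 genes was called, where 0.0243% of 16447 genes were. Lgr5 had a log2 fold change of -0.52 (SE 0.16, unadjusted p = 0.00456, adjusted p = 0.57 in limma) and the smallest p-value of the set. Without eKO mouse 1 its log2 fold change was -0.46 (SE 0.17), with an adjusted p-value of 0.12 in limma, short of the fold required. In that fit 6.92% of all genes were called. Without the library labelled eKO mouse 2 the log2 fold change of Lgr5 was -0.70 (SE 0.13), with an adjusted p-value of 0.112. Lgr5 was then called, where 0.196% of all genes were. Over the alternatives the adjusted p-value of Lgr5 ran from 0.112 to 1, with none given by DESeq2. The effect of genotype on Lgr5 was 0.52 higher in the Vil1-Cre line than in the Olfr78-GFP line (SE 0.29, adjusted p = 0.577 in limma for the interaction), and 0.18 higher without that library (SE 0.28, adjusted p = 0.713). None of the 10 genes passed the test of this difference at an adjusted p-value under 0.05, which 2 of all genes did, and 214 without that library. Sox9, the next by p-value in the joint fit, had a log2 fold change of -0.24 (SE 0.12), and of -0.22 (SE 0.14) without it.

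The other lists of the pathway were described in the same way. Of 16 further crypt base and stem cell genes, 13 were tested in HE pools against Epcam+ve samples, where 5 fell and 3 rose at an adjusted p-value under 0.05, beside 11.3% and 12.5% of all genes. Myc, a Wnt target and growth regulator, ranged from 905 to 984 CP20M in Epcam+ve cells and fell to a range of 227 to 254 (log2 fold change -1.93, SE 0.29). Cdca7 (-1.51, SE 0.26) and Slc12a2, a chloride cotransporter abundant at the crypt base (-2.06, SE 0.36), fell as well. Hopx, a marker of slowly cycling crypt cells, rose from 566 and 582 to 1796 and 2334 CP20M (log2 fold change 1.82, SE 0.23) and was 676 and 733 in KO cells. Of 17 Wnt receptor and transducer genes, 12 were tested, of which 3 fell and 1 rose against the same shares of all genes. The receptors Fzd5 (-1.64, SE 0.28) and Lgr4 (-0.85, SE 0.19) and the factor Tcf7l1 (-2.31, SE 0.60) fell, and the kinase Gsk3b rose (0.66, SE 0.19). The median log2 fold changes were -0.68 for the first list and -0.31 for the second, against -0.05 for all genes.

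In KO against Epcam+ve samples and in KO against HE pools no gene of either list was called. In WT crypts against Epcam+ve samples, where 18.5% of all genes rose and 6.07% fell, 2 of 13 crypt base genes rose, Prom1 (0.72, SE 0.10) and Myc (0.48, SE 0.14), and Slc12a2 fell (-0.35, SE 0.10), while 5 of 12 receptor and transducer genes rose, among them Lrp6 (0.74), Fzd5 (0.70), Ctnnb1 (0.61) and Gsk3b (0.54), all on the deposited scale. In KO against WT crypts no gene of either list passed the rule with the fold limit among 14 and 12 tested, and Tcf7l2, a TCF factor of the intestine, had a log2 fold change of 0.55 (SE 0.14, adjusted p = 0.0336 in limma). In eKO against eControl crypts and in both lines together none was called.

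**Figure D4:**
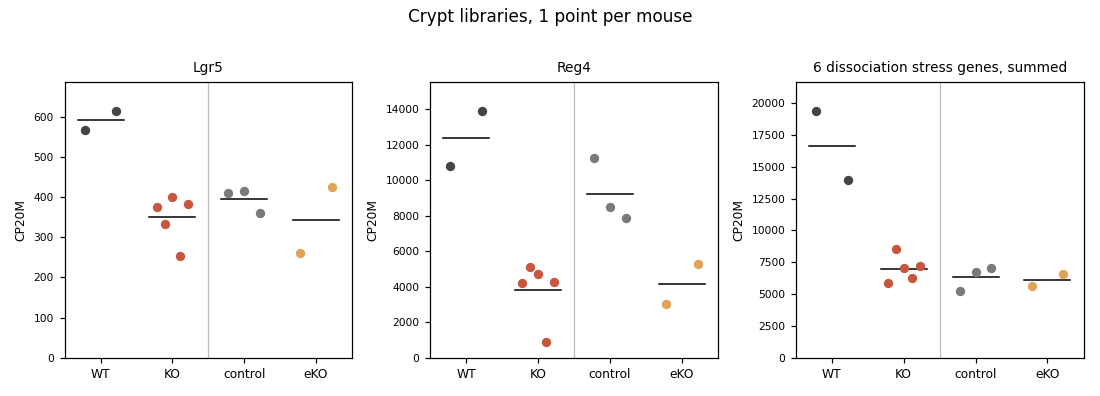
CP20M (y axes, linear, from 0) of Lgr5, of Reg4 and of 6 dissociation stress genes summed, in the 12 crypt libraries by group (x axes); points are mice, bars group means, and the line divides the mouse lines. Lgr5 and the stress genes are highest in both WT crypts, whereas Reg4 is also high in the 3 eControl crypts.

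Across the 12 crypt libraries, after each line was centred on its own mean, Fgfr2 (Pearson's r = 0.91), Gm43697 (0.91), Cytip (0.91) and Reg4 (0.91) were among the 5 genes of 14488 whose log2 levels followed Lgr5 most closely. These libraries share the groups, so a gene that differs between WT and KO crypts is correlated with Lgr5 by that alone, and the values are a description. Reg4, a marker of deep crypt secretory cells, the neighbours of stem cells at the colon crypt base, was 10830 and 13902 in WT crypts, 907 to 5127 in KO crypts, 7858 to 11263 in eControl crypts and 3046 and 5305 in the eKO crypts. Within each line the Reg4 values did not overlap between the titled groups, with 5305 CP20M in the library labelled eKO mouse 2. Reg4 was picked from these same libraries, and the share of all genes separated in both lines was not counted. The other deep crypt secretory markers did not go with Reg4. In KO against WT crypts Kit had a log2 fold change of 0.05 (SE 0.16) and Agr2 of 0.18 (SE 0.23). The 3 genes summed to 42178 and 35192 CP20M in WT crypts and 23415 to 42116 in KO crypts. Within the set, Znrf3 (r = 0.58), Sox9 (0.51) and Smoc2 (0.46) followed Lgr5 most, and the other 6 genes had r between -0.23 and 0.13, so not all of the crypt stem cell genes followed Lgr5 across these mice.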

How the data were processed

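RNA-seq values of 18 mouse colon libraries were used, from every column of 2 deposited tables. According to the methods, paired-end reads were mapped by the authors onto GRCm38 (STAR) and counted per gene (HTSeq, Ensembl annotation). The deposited values of sorted cells are a signal: reads per gene, scaled to 20000000 a library and rounded up. The deposited values of crypts were made alike and are treated as a score. Dividing by the value of 1 read gave whole reads for 99.84% to 99.99% of values. Titles gave the groups.

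Tested genes had 40 CP20M (2 CPM) or more in 2 or more compared libraries. The test was limma 3.58.1 (trend, R 4.3.3) on log2(CP20M + 10), a scale that understates changes of low genes, without a block and with Benjamini-Hochberg adjustment. Call rules follow the study's methods, with an adjusted p-value under 0.05 added. Intervals are limma's 95% intervals. The limit for a count of 0 covers counting error only. Exon lengths and gene positions came from GENCODE M21 on GRCm38, promoters from RefSeq on GRCm38.p6. Alternatives were pseudocounts of 1 and 40, other filters, median-of-ratios rescaling, edgeR 4.0.16 and DESeq2 1.42.0 on recovered reads, the library number as a block, other sample sets, and leaving out each library. The fits were tested on simulated reads.

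The genes and lists were chosen with earlier results of these data known. Named are all 10 genes in every comparison, up to 4 called genes by p-value of each further list, the 5 genes most correlated with Lgr5, of which 1 is not reported here, and Olfr78. Gm26735 was named after its values were seen.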

Additional observations from a re-analysis of the deposited data

How the results depend on the processing

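Of the single-gene values, 550 kept their direction and side of the threshold under settings other than leaving out a library, 21 newly passed, 9 no longer passed and 25 changed sign, and on leaving out 1 library in turn the numbers were 334, 24, 9 and 31. The cause of these changes was not tested.

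At an adjusted p-value under 0.05, 6 of the 10 genes were called in HE against Epcam+ve cells, beside 23.8% of all genes. This became 3 with a pseudocount of 1, beside 17.8%, and 1 in a joint fit of the 6 sorted libraries, beside 8.96%. For KO against Epcam+ve cells DESeq2 called 1, beside 3.85%. For WT crypts against Epcam+ve cells median-of-ratios rescaling called 4, beside 17.5%, edgeR 5, beside 20.8%, and DESeq2 3, beside 11.3%. On leaving out a library the counts of these comparisons moved as well, as did the share of all genes called. In KO against WT crypts 1 was called on leaving out any KO mouse, beside 8.7% to 10.7% of all genes by the crypt rule. Leaving out a WT mouse changed this, as given above. In both lines together 0 to 1 were called by that rule on leaving out a library, where 0% to 6.92% of all genes were. Of all genes called by the stricter rule in HE against Epcam+ve cells, 90.2% were higher, and 77.1% in edgeR and 79.4% in DESeq2. Of those called in WT crypts against Epcam+ve cells, 75.3% were higher, and 46.6% in edgeR and 40.6% in DESeq2. Rescaling by the median of ratios moved the median gene by 0.137 in KO against Epcam+ve cells and 0.155 in KO against HE cells on the log2 scale.

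With the library number as a block, 3 of the 10 genes were called in KO against Epcam+ve cells, beside 6.34% of all genes. In KO against WT crypts the block called 2 by the crypt rule, beside 9.73%, and 3 at an adjusted p-value under 0.05, beside 12.5%. The block changed the sign of Rnf43 (-0.100) and Lrig1 (-0.005) in KO against WT crypts, of Smoc2 (-0.007) in eKO crypts and of Rnf43 (-0.038) in both lines. The numbers come from titles that name different animals. Deviations of same-numbered libraries correlated by -0.162 for KO and HE cells, 0.061 and -0.103 for KO and WT crypts and 0.363 and 0.589 for eKO and eControl crypts, and by -0.002 to 0.03 elsewhere. A block with crossed pairs for KO and HE cells, added after seeing the data, called 80 genes and none of the 10.

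In KO against HE cells edgeR and DESeq2 gave log2 fold changes above 0 for Axin2 (0.186 and 0.164), Znrf3 (0.131 and 0.118), Lrig1 (0.085 and 0.110) and Sox4 (0.128 and 0.171), and rescaling gave 0.123 for Lrig1. In WT crypts against Epcam+ve cells Ascl2 was -0.015 in edgeR and -0.046 in DESeq2, and Sox9 was -0.075 rescaled, -0.120 in edgeR and -0.127 in DESeq2. In eKO against eControl crypts rescaling, edgeR and DESeq2 gave -0.019, -0.018 and -0.020 for Smoc2 and -0.027, -0.023 and -0.026 for Rnf43. Without the line as covariate Sox4 was 0.037 in both lines.

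On leaving out 1 library, log2 fold changes in KO against HE cells ran from -0.519 to 1.216 for Lgr5, -1.971 to 1.104 for Ascl2, -0.899 to 0.455 for Axin2, -1.258 to 1.332 for Smoc2 and -0.333 to 0.899 for Rnf43. They ran from -0.681 to 0.316 for Znrf3, -0.625 to 0.717 for Cd44, -0.502 to 0.425 for Lrig1 and -1.132 to 0.615 for Sox4. In WT crypts against Epcam+ve cells they ran from -0.558 to 0.001 for Lgr5 and -0.177 to 0.681 for Ascl2, and in KO against WT crypts from -0.084 to 0.318 for Rnf43. In eKO crypts they ran from -0.577 to 0.103 for Lgr5, -0.209 to 0.188 for Axin2, -0.095 to 0.122 for Smoc2 and -0.220 to 0.231 for Rnf43. There they ran from -0.233 to 0.048 for Sox9, -0.014 to 0.097 for Lrig1 and -0.072 to 0.312 for Sox4, and in both lines from -0.031 to 0.157 for Rnf43 and -0.124 to 0.033 for Sox4. Depth limited Ascl2 most, with 0 reads in 2 sorted libraries. The sorted libraries held 1 to 77 reads of Smoc2, 6 to 111 of Axin2 and 7 to 77 of Znrf3. Sorted Lgr5 rested on 9 to 85 reads a library against 102 to 271 in crypts.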
